A study of Mus musculus with 12 samples.

Results

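Immunoglobulin variable (V) segments are the short germline exons that encode most of the antigen-binding domain of an antibody chain. The deposited gene table held 216 genes of the annotation type IG_V_gene with a heavy (Ighv), kappa (Igkv) or lambda (Iglv) symbol, among 55471 genes in all. A segment was included when at least 1 of the 12 libraries had 10 or more counts on it, and 178 segments met that rule. They were 96 of 113 Ighv genes, 79 of 100 Igkv genes and all 3 Iglv genes. Of the 38 left out, 7 had no count in any library and 31 had 1 to 9 counts as their highest value. Just inside the limit stood Ighv8-2 with a highest count of 10, Igkv8-26 with 11, and Ighv1-37 and Ighv11-1 with 12 each. Just outside stood Igkv4-71 with 8, Ighv15-2 and Ighv9-1 with 6, and Ighv1-36 with 4.

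The libraries were made from total RNA of mouse LSK cells, a bone marrow fraction defined by absent lineage markers and by Sca-1 and Kit, in which blood stem cells and early progenitors are found. The cells came from primary transplant recipients sampled 6 weeks after tamoxifen, in 6 groups of 2 libraries. The groups were wild type (WT), Hoxa9 knockout (Hoxa9_KO), β-catenin knockout (Bcat_KO), the β-catenin and Hoxa9 double knockout (dKO), Prmt1 knockout (Prmt1_KO) and a wild type of its own for the Prmt1 experiment (WT_Prmt1). Titles call the altered groups knockouts and the genotype field calls them knockdowns. Strain, age, the Cre driver, whether wild types also received tamoxifen, and how many animals stand behind a library were given neither in the labels nor in the design text. Libraries are named by the tag of their column (S1, S2 and so on), which is not a replicate number. The tag S4 occurs in both Hoxa9_KO and Bcat_KO. The labels do not say whether a group's 2 libraries stem from different mice, so the p-values below measure the spread between these libraries, which may be technical.

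Library totals ran from 17569709 to 40553891 counts, both Bcat_KO libraries being the deepest. Levels are CPM, a gene's counts scaled to the same total in every library. Each targeted gene was lower in every library labelled for it than in all others, though Ctnnb1 in Bcat_KO only by a small margin. Hoxa9 was at 8.32 to 12.7 CPM in the Hoxa9_KO and dKO libraries and at 37.4 to 64.7 CPM in the others. Prmt1 was at 102 and 107 CPM in Prmt1_KO and at 246 CPM or more elsewhere. For Ctnnb1, the β-catenin gene, the level was 290 and 279 CPM for Bcat_KO, 219 and 241 CPM for dKO and 319 CPM or more in the rest. The 10 listed markers of LSK cells summed to 1387 to 2221 CPM over the 12 libraries, and none was at 0 in both libraries of any group. Sex-linked genes split the libraries by group. Xist, an X-linked RNA made in female cells, stood at 166 to 203 CPM in the 4 wild-type libraries. Among the 8 knockout libraries it stood at 11.8 and 22.9 CPM in Bcat_KO and at 0 to 0.696 CPM in the rest. Y-linked Ddx3y stood at 0.796 to 2.92 CPM in the wild types and at 62.7 to 85.0 CPM in the knockouts. In each comparison of a knockout with a wild type, genotype and this split therefore cannot be told apart.

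A heavy chain V segment becomes an expressed exon after the recombinase, encoded by Rag1 and Rag2, joins it to a D and a J segment, and a light chain segment after joining to a J segment. A productive rearrangement is carried by 1 B cell and its descendants, so the segments in a pool of RNA reflect the B-lineage cells that contributed to it. The amount is far higher per cell in antibody-secreting plasma cells than in resting B cells, and a stem cell or early progenitor carries no completed rearrangement. In the GRCm38 annotation the 96 Ighv members lay on chromosome 12 between 113578504 and 116000461, all on the minus strand. The 79 Igkv members lay on chromosome 6 between 67609713 and 70704177, 48 of them on the minus strand, and the 3 Iglv members on chromosome 16 between 19085017 and 19260859.

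The 12 members with the highest mean CPM over the 12 libraries are shown by the end of their V exon, where the germline segment meets the junction that makes each antibody chain unique. Capitals mark the last in-frame cysteine codon, which opens the third hypervariable loop. All 178 members have an in-frame cysteine codon, and in 172 of them 2 to 30 bases follow the last one. For Igkv14-126 and Ighv11-2, the light and heavy segment that were each other's nearest in pattern, up to 300 bases are given. The others are shown by their last 60 bases. Sequences are from the GENCODE M21 transcripts on GRCm38, written 5′ to 3′ on the coding strand.
Igkv14-126: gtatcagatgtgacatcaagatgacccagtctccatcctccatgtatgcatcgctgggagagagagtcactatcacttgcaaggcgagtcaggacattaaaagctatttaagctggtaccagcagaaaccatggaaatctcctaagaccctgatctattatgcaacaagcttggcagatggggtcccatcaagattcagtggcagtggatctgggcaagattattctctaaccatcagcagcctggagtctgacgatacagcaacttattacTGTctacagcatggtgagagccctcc
Ighv11-2: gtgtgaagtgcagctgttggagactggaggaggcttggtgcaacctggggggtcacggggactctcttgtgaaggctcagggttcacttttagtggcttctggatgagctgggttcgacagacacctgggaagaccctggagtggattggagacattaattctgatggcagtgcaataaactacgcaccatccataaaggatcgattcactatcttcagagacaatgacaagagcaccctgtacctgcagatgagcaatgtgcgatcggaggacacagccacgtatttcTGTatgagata
Iglv1: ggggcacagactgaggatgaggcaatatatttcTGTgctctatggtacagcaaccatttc
Ighv8-8: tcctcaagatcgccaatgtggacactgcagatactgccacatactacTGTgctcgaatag
Ighv5-17: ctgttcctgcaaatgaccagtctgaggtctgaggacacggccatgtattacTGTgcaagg
Igkv5-39: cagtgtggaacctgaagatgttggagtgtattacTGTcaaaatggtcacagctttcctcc
Igkv3-10: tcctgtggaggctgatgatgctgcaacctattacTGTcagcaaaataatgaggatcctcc
Igkv19-93: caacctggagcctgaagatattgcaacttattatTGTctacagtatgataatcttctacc
Igkv6-25: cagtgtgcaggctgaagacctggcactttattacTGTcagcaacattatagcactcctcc
Igkv4-74: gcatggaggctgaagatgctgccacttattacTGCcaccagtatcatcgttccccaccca
Igkv15-103: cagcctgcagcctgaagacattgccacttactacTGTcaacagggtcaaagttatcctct
Ighv5-16: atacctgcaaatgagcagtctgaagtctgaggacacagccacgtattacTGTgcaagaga

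On GRCm38 the stretches shown lie at chr6:67896345-67896642 for Igkv14-126, chr12:114048241-114048540 for Ighv11-2, chr16:19085017-19085076 for Iglv1, chr12:115294062-115294121 for Ighv8-8, chr12:113859149-113859208 for Ighv5-17, chr6:69900424-69900483 for Igkv5-39, chr6:70573171-70573230 for Igkv3-10, chr6:68736297-68736356 for Igkv19-93, chr6:70215898-70215957 for Igkv6-25, chr6:69184826-69184885 for Igkv4-74, chr6:68437866-68437925 for Igkv15-103 and chr12:113838526-113838585 for Ighv5-16. Igkv14-126, Igkv3-10, Igkv6-25 and Igkv15-103 are on the plus strand and the other 8 on the minus strand. Each stretch is exonic coding sequence of a single V gene. Sequence similarity limits how reads are assigned to a single segment. Over windows of 50 bases, the median member shared 23.4% of its windows with another V gene or V pseudogene. Of the 178 members, 34 shared none and 28 shared at least 50% of theirs. Igkv14-126, Igkv5-39, Igkv19-93, Igkv15-103 and Ighv5-16 shared no window. Ighv11-2 was 98.9% identical to Ighv11-1 over 353 bases and shared 38.6% of its windows, and Ighv11-1 itself had at most 12 counts in a library. Igkv3-10 shared 51.1% of its windows and was 96.7% identical to Igkv3-5, Igkv4-74 shared 48.1% and Igkv6-25 45.6%, so their split from near copies is uncertain. The same holds for other segments named below. Igkv4-59 shared 74.3%, Igkv4-70 63.9%, Ighv1-77 54.3%, Igkv3-5 51.4% and Igkv1-117 49.9%.

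The share of all counts that fell on the 178 segments varied between groups and between the 2 libraries of a group. In WT it was 0.159% in S1 and 0.397% in S2. In Hoxa9_KO it was 0.989% in S4 and 1.42% in S5. In Bcat_KO it was 0.366% in S3 and 0.509% in S4. Bcat_KO overlapped WT, and both Hoxa9_KO libraries lay above every wild-type and Bcat_KO library. In dKO it was 2.42% in S6 and 0.950% in S7. In WT_Prmt1 it was 0.325% in S10 and 0.334% in S11. In Prmt1_KO it was 0.349% in S8 and 0.455% in S9. The 4 highest shares were thus those of the 4 Hoxa9-deleted libraries.

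As group means the shares were 0.278% ± 0.168 (SD, n = 2) for WT, 1.20% ± 0.304 for Hoxa9_KO, 0.437% ± 0.101 for Bcat_KO, 1.69% ± 1.04 for dKO, 0.330% ± 0.00682 for WT_Prmt1 and 0.402% ± 0.0749 for Prmt1_KO. The Hoxa9_KO mean was 4.33 times that of WT without overlap. This fold ran from 2.50 to 8.91 over pairs of libraries and stood at 3.04 without WT S1 and 7.56 without WT S2. The dKO mean was 6.07 times that of WT, with 2.40 to 15.2 over pairs, 3.42 without dKO S6 and 10.6 without WT S2. It was 3.86 times that of Bcat_KO, with 1.87 to 6.62 over pairs and 2.17 without dKO S6, and neither of these comparisons overlapped. The difference between group means was larger than the wider gap between 2 libraries of a group for Hoxa9_KO against WT, and smaller than that gap in the 6 other comparisons. The dKO mean was 1.40 times that of Hoxa9_KO (0.789 without dKO S6), with overlap. The Bcat_KO mean was 1.57 times that of WT (1.10 without WT S1 and 2.75 without WT S2), also with overlap. Prmt1_KO stood at 1.22 times WT_Prmt1 without overlap, with 1.04 to 1.40 over pairs, and WT_Prmt1 at 1.19 times WT with overlap (0.831 without WT S1 and 2.07 without WT S2). These sums over members carry no p-value. In bulk RNA, a larger number of B-lineage cells and more antibody RNA per cell cannot be told apart.

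**Figure D1:**
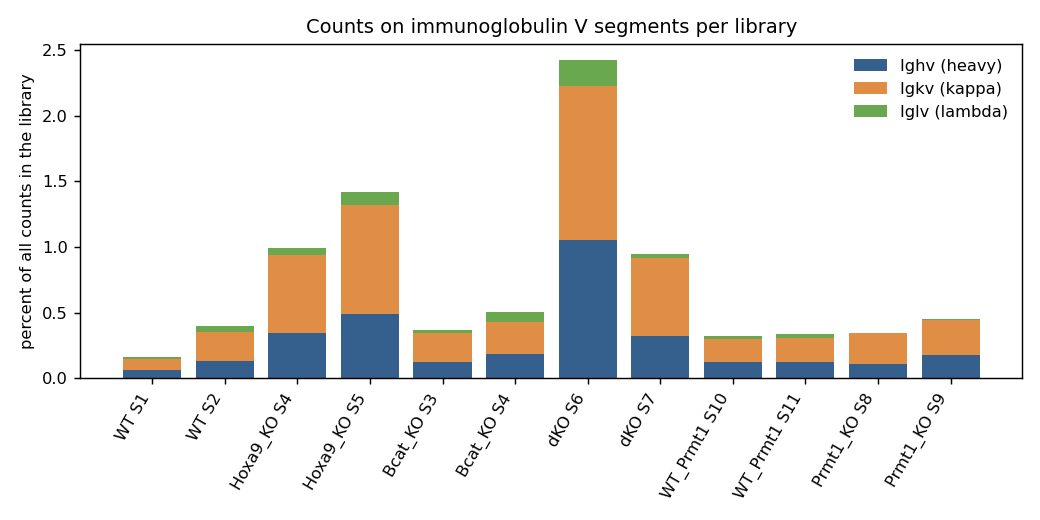
Percent of all counts in each of the 12 libraries (y axis) on V segments, stacked by heavy, kappa and lambda chain. The 4 Hoxa9-deleted libraries stand between 0.950% and 2.42%, and all others at or below 0.509%.

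Heavy and light chains made up similar parts of the V counts in every library. Ighv segments held 31.1% to 43.5% and Igkv segments 48.1% to 67.5% of the V counts. The lambda part of the light chain counts varied more. It was 16.4% and 17.3% for WT, 8.92% and 24.3% for Bcat_KO, and 2.03% and 2.46% for Prmt1_KO against 12.6% and 11.6% for WT_Prmt1. Among lambda segments, Iglv1 held 98.9% and 90.8% in WT but 8.75% and 26.2% in Bcat_KO, where Iglv2 held 90.9% and 73.7%.

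Per kilobase of gene model, members stood at 24.3 to 370 CPM per kb over the 12 libraries. Immunoglobulin V pseudogenes stood at 0.0165 to 0.209 CPM per kb, T cell receptor V genes at 0.0537 to 0.141, and olfactory and vomeronasal receptor genes at 0.00196 to 0.0305. The receptor genes, which belong to sensory neurons, stood at 0.0232 CPM per kb or more in both WT libraries and at 0.00196 and 0.00265 in Bcat_KO. V levels in every library lay above the highest level of these other classes. Members were chosen for reaching 10 counts and the other classes were not, so the choice itself favoured this order. Over all 216 V genes the share of counts in WT S1, the library with the lowest V share, stayed at 0.159%. The ratio of V to constant region counts was similar everywhere, from 0.331 to 0.519. The ratio of V to J segment counts was 28.9 to 51.1 in 10 libraries but 922 and 663 in Bcat_KO, where the J segments summed to 3.97 and 7.67 CPM against 43.1 CPM or more elsewhere. J segments are short exons between V and constant region, and the part of this difference in the Bcat_KO V values was not tested.

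The spread over segments separated the groups differently from the total. With 10 or more counts as detection, 66 and 84 members were detected for WT, 108 and 105 for Hoxa9_KO, 64 and 64 for Bcat_KO, 116 and 109 for dKO, 81 and 79 for WT_Prmt1, and 49 and 54 for Prmt1_KO. Members at 0 in both libraries numbered 81 for Bcat_KO and 66 for Prmt1_KO, against 37 for WT_Prmt1, 28 for WT, 24 for Hoxa9_KO and 16 for dKO. Bcat_KO had the deepest libraries and still the most members at 0. The inverse Simpson index gives the number of equally used segments that would be as uneven as the segments observed. It was 26.7 and 24.0 for WT, 26.0 and 13.9 for Hoxa9_KO, 12.3 and 8.71 for Bcat_KO, 17.6 and 34.0 for dKO, 21.6 and 21.5 for WT_Prmt1, and 3.43 and 4.12 for Prmt1_KO. Use was thus most uneven in both Prmt1_KO libraries, next in Bcat_KO, and the Hoxa9_KO and dKO pairs each spanned a wide range.

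The segment that led a library differed between groups. By counts, which are close to a per-length order because member gene models run from 338 to 480 bases, Iglv1 led both WT libraries with 9.80% and 10.4% of V counts. Igkv6-25 led both Bcat_KO libraries with 16.7% and 24.1%. Igkv14-126 led both WT_Prmt1 libraries with 14.1% and 15.1% and both Prmt1_KO libraries with 48.6% and 40.8%. It also led Hoxa9_KO S4 with 12.9% and dKO S7 with 9.01%. The remaining library of each of these pairs had another leader, Igkv3-10 with 21.8% in Hoxa9_KO S5 and Ighv8-8 with 14.2% in dKO S6.

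Most segments were abundant in few libraries. Only 9 members reached 10 counts in all 12 libraries, namely Igkv1-135, Igkv14-126, Ighv5-16, Ighv11-2, Ighv6-3, Ighv1-55, Ighv1-82, Iglv1 and Iglv2, and 22 members reached it in 1 library only. For 86 members a single library held over 50% of their CPM summed over libraries. The 12 members whose sequences are shown held 49.6% of all member counts.

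Single segments show how far libraries of 1 group could differ. Igkv3-10 was at 124 and 3093 CPM for Hoxa9_KO, at 0 in both WT and both Bcat_KO libraries, at 0.336 and 29.1 CPM for dKO, at 9.61 and 1.81 for WT_Prmt1 and at 17.5 and 12.5 for Prmt1_KO. Ighv5-17 was at 0 and 238 CPM for WT, 76.9 and 226 for Hoxa9_KO, 0.0668 and 0.370 for Bcat_KO, 2889.5 and 169 for dKO, 18.6 and 47.6 for WT_Prmt1, and 0.223 and 0 for Prmt1_KO. Ighv8-8 reached 3449.6 CPM in dKO S6 and was at 77.9 CPM in dKO S7 and at 75.8 CPM or less in the 10 others. For each of these a single library held most of the signal.

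Other segments were high, or absent, in both libraries of a group. Igkv6-25 was at 613 and 1224 CPM for Bcat_KO, at 52.3 and 2.26 for WT, 111 and 139 for Hoxa9_KO, 217 and 6.39 for dKO, 1.02 and 1.13 for WT_Prmt1, and 0.334 and 1.27 for Prmt1_KO. Ighv1-63 was at 245 and 263 CPM in Bcat_KO and at 18.2 CPM in dKO S6 and at 0.124 CPM or less in the other 9 libraries. Igkv5-39 was at 71.6 and 144 CPM for WT, 751 and 900 for Hoxa9_KO, 485 and 451 for dKO, 277 and 190 for WT_Prmt1, and 155 and 176 for Prmt1_KO, and had no count in either Bcat_KO library. Igkv6-25 and Ighv1-63 thus had their highest levels in the 2 Bcat_KO libraries, while Igkv5-39 was missing there and present in the 10 other libraries.

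**Figure D2:**
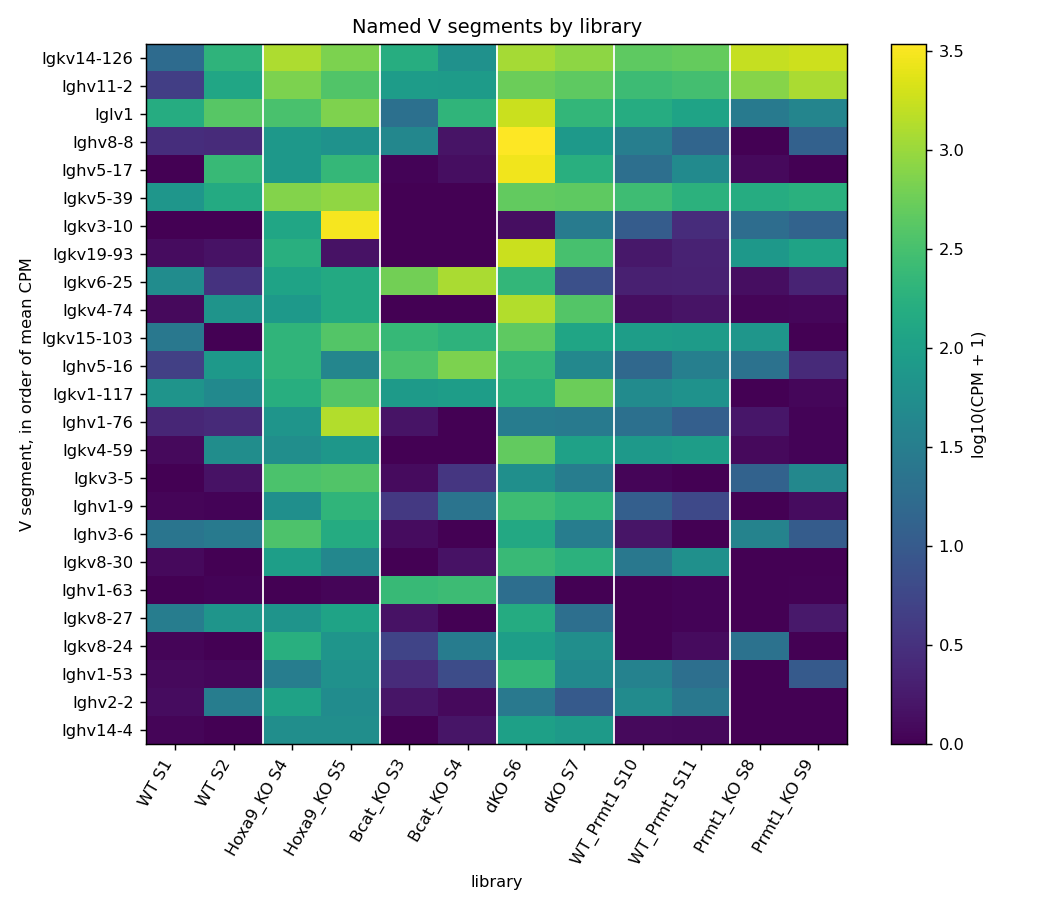
The 25 named V segments with the highest mean level (rows) in the 12 libraries (columns), as log10 of CPM plus 1, with white lines between groups. Igkv14-126 and Ighv11-2 are present in every library, while Igkv6-25 and Ighv1-63 are highest in Bcat_KO, where Igkv5-39 is at 0.

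The makeup of the V counts was compared between libraries as the overlap of use, the sum over members of the smaller of the 2 libraries' percentages. Within a group it was 31.6% for WT, 47.6% for Hoxa9_KO, 66.1% for Bcat_KO, 47.6% for dKO, 81.8% for WT_Prmt1 and 76.6% for Prmt1_KO. Over the 60 pairs of libraries from different groups it ran from 9.72% to 56.9% with a median of 28.7%. WT S1 and WT S2 were therefore no more alike than many libraries of different groups, and the WT_Prmt1 pair was the most alike. For 8 of the 12 libraries the partner was the closest library. The exceptions were both WT libraries, whose closest was dKO S7, together with Hoxa9_KO S4, closest to WT_Prmt1 S10, and dKO S7, closest to Hoxa9_KO S4.

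**Figure D3:**
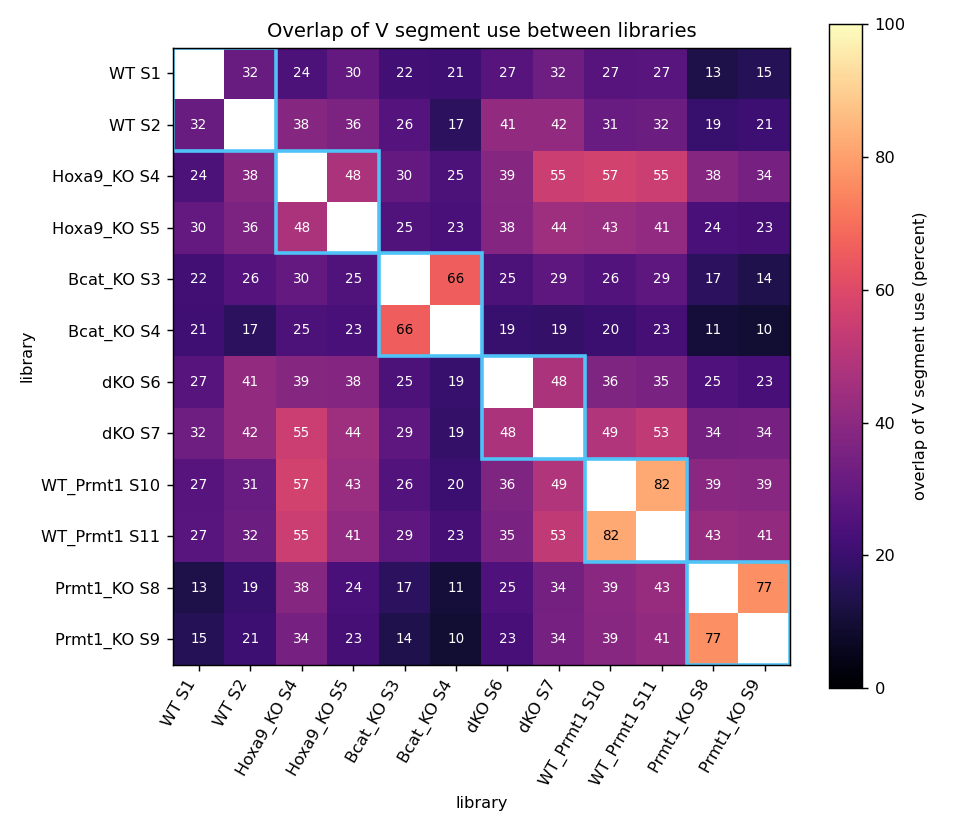
Overlap of V segment use in percent (colour and printed value) for each pair of the 12 libraries, with blue frames around the 2 libraries of a group. The frames of WT_Prmt1, Prmt1_KO and Bcat_KO hold 82, 77 and 66, above every value outside the frames, and that of WT holds 32.

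The 2 libraries of each group differed by more than counting noise, so each was kept as a sample of its own. The chi-square per gene over members, which grows with the number of counts, ran from 92.6 in WT_Prmt1 to 2218 in dKO.

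Igkv14-126 and Ighv11-2 are known as the light and heavy segments of antibodies against phosphatidylcholine, which are made by B-1a cells, a self-renewing B cell population of the body cavities that forms early in life. They are on different chromosomes. Igkv14-126 was at 16.4 and 199 CPM for WT, 1273 and 696 for Hoxa9_KO, 157 and 61.4 for Bcat_KO, 1150 and 856 for dKO, 457 and 504 for WT_Prmt1, and 1696 and 1857 for Prmt1_KO. Ighv11-2 was at 3.49 and 123 CPM for WT, 685 and 381 for Hoxa9_KO, 88.4 and 87.6 for Bcat_KO, 553 and 458 for dKO, 263 and 297 for WT_Prmt1, and 780 and 1212 for Prmt1_KO. Both were lowest in WT S1 and highest in the 2 Prmt1_KO libraries.

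The 2 segments varied together across libraries. There were 0.460 to 0.653 Ighv11-2 counts per Igkv14-126 count in 10 of the 12 libraries, 0.213 in WT S1 and 1.43 in Bcat_KO S4. Gene models of 461 and 358 bases stand behind these counts, so the ratio is comparable between libraries and is not a molar ratio. Igkv14-126 was chosen as the member with the highest mean CPM. Ighv11-2 was chosen as the member nearest to it by Pearson correlation of log2 levels over the 12 libraries, with r of 0.97. That it was the nearest of Igkv14-126 was thus fixed by the choice. Among 177 members Igkv14-126 was in turn the nearest of Ighv11-2. The next nearest of Igkv14-126 was Igkv19-93 with 0.70, and that of Ighv11-2 the same segment with 0.63. Among 7872 pairs of a light and a heavy member this r had rank 27, and in the 10 pairs with the highest r no segment reached 10 counts in more than 6 libraries. Points of 1 group share their condition, so these are descriptions.

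Together the 2 segments held 71.0% and 67.5% of V counts for Prmt1_KO, 22.2% and 23.9% for WT_Prmt1, 19.8% and 7.59% for Hoxa9_KO, 7.02% and 13.8% for dKO, 6.70% and 2.93% for Bcat_KO, and 1.25% and 8.12% for WT. Within their chains they led by a similar margin in Prmt1_KO, where Igkv14-126 held 72.0% and 68.4% of Igkv counts and Ighv11-2 71.9% and 68.6% of Ighv counts. Without the 2 segments, the V share was 0.101% and 0.148% in Prmt1_KO and 0.253% and 0.254% in WT_Prmt1. The order of these 2 groups thus turned around when the 2 segments were left out. The inverse Simpson index without them was 17.1 and 21.4 in Prmt1_KO against 30.5 and 36.1 in WT_Prmt1, and the overlap between the Prmt1_KO libraries was 43.8%. By edgeR's quasi-likelihood test, Igkv14-126 differed by 2.03 ± 0.79 (log2 ± SE) between Prmt1_KO and WT_Prmt1 with a Benjamini-Hochberg adjusted p of 0.0739. For Ighv11-2 it was 1.97 ± 0.92 with an adjusted p of 0.133, so neither passed 0.05, although both Prmt1_KO libraries lay above both WT_Prmt1 libraries for each.

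**Figure D4:**
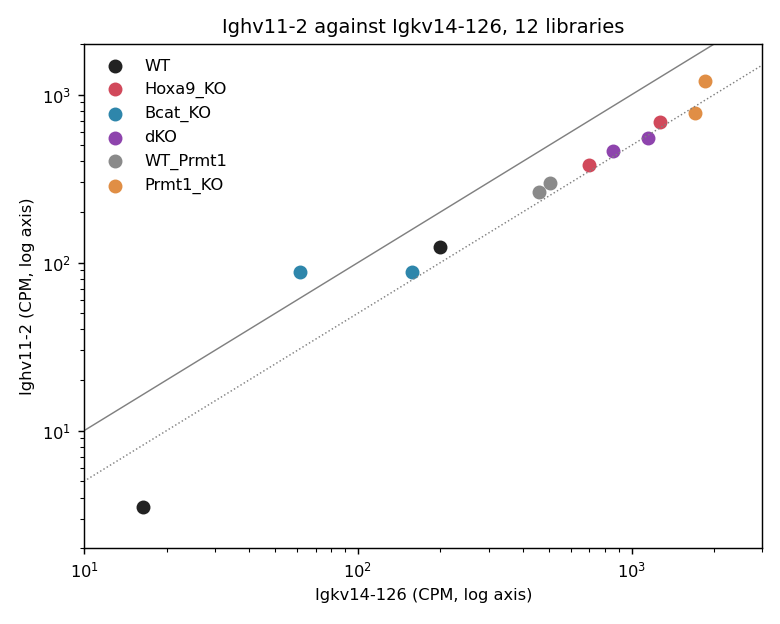
Level of Ighv11-2 (y axis) against Igkv14-126 (x axis) in CPM on log axes, 1 point per library, coloured by group. The solid line marks equal levels and the dotted line 1 Ighv11-2 count per 2 Igkv14-126 counts. The lowest point is WT S1 and the 2 points farthest right are Prmt1_KO.

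By V family, part of the makeup follows from single segments. The Ighv1 family, with 48 members the largest, held 7.52% and 7.28% of heavy chain counts in Prmt1_KO and 15.5% to 51.9% in the other 10 libraries. With Ighv11-2 left out it held 26.7% and 23.2% in Prmt1_KO, inside the range of 16.4% to 56.3% of the other libraries. The Igkv4 family of 21 members held 0.102% and 3.95% of kappa counts for Bcat_KO and 1.05% and 4.18% for Prmt1_KO, against 16.7% and 18.3% for WT_Prmt1, 19.2% and 21.03% for WT, 19.3% and 13.6% for dKO, and 7.82% and 8.73% for Hoxa9_KO. With Igkv14-126 left out it held 3.76% and 13.2% for Prmt1_KO and 22.5% and 25.1% for WT_Prmt1. The Igkv6 family held 31.8% and 50.2% in Bcat_KO and at most 17.7% elsewhere. Ordered along the heavy chain locus, the 48 members nearest to the J segments held 92.5% and 92.1% of heavy chain counts for Prmt1_KO, 76.4% and 81.4% for WT_Prmt1, 48.8% and 61.6% for WT and 51.8% to 74.9% in the other groups. With Ighv11-2, which lies in that part of the locus, left out, the share was 73.3% and 74.8% for Prmt1_KO and 69.9% and 75.6% for WT_Prmt1, so these 2 groups overlapped.

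Each member was then tested with edgeR's quasi-likelihood test on the whole table, with Benjamini-Hochberg adjustment over 17063 genes and a threshold of 0.05. Of the 178 members 155 passed the filter on low counts. A segment could pass through the group where it was high, so the counts and p-values that follow are descriptions. Fewer than 2 libraries outside the higher group reached 10 counts for 2 of the 16 members called in Hoxa9_KO against WT, 2 of 26 for Bcat_KO, 6 of 39 for dKO, 1 of 4 for dKO against Hoxa9_KO, 7 of 68 for dKO against Bcat_KO, 5 of 29 for Prmt1_KO and 3 of 13 between the wild types. Between Hoxa9_KO and WT 16 of 155 members were called, 15 higher and 1 lower, where 5.33% of all genes were called, and the median log2 difference over tested members was 2.20 against 0.00 over all genes. Between dKO and WT 39 members were called, 35 higher and 4 lower, beside 16.5% of all genes, and the median was 3.04. Between Bcat_KO and WT 26 members were called, 7 higher and 19 lower, beside 15.7% of all genes, and the median was -1.27. In the Bcat_KO comparison the called share of members, 16.8%, was near that of all genes.

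Between dKO and Hoxa9_KO 4 members were called, 2 higher and 2 lower, beside 1.24% of all genes. Between dKO and Bcat_KO 68 members were called, 64 higher and 4 lower, beside 27.4% of all genes, with a median of 5.90. Between Prmt1_KO and WT_Prmt1 29 members were called, 7 higher and 22 lower, which is 18.7% of those tested beside 31.8% of all genes, with a median of -1.03. Between the 2 wild-type groups 13 members were called, 10 higher and 3 lower in WT_Prmt1, beside 6.66% of all genes. Comparisons with WT share the same 2 libraries.

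These counts depended on how the spread was estimated. The shares over all genes given above are those of the main fit only. Whether members moved more than all genes in the alternatives below was not tested. With robust estimation they fell to 7 for Hoxa9_KO, 10 for dKO and 7 for Bcat_KO against WT, 1 for dKO against Hoxa9_KO, 22 for dKO against Bcat_KO, 9 for Prmt1_KO and 4 between the wild types. Leaving out 1 library moved several by over 1.5 times. The Bcat_KO count fell to 14 without Bcat_KO S3 and to 8 without Bcat_KO S4, and the dKO count against WT to 22 without WT S1 and to 21 without WT S2. The count for dKO against Bcat_KO fell to 34 without Bcat_KO S3 and to 29 without Bcat_KO S4. The Prmt1_KO count fell to 15 without WT_Prmt1 S10 and to 17 without WT_Prmt1 S11 or Prmt1_KO S9. The count between the wild types fell to 6 without either WT_Prmt1 library. That for dKO against Hoxa9_KO rose to 15 without Hoxa9_KO S4, 7 without Hoxa9_KO S5, 10 without dKO S6 and 18 without dKO S7.

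Among the segments called in single comparisons, Igkv5-39 was called higher in the Hoxa9-deleted groups than in WT. It was 2.94 ± 0.30 (log2 ± SE) higher in Hoxa9_KO than in WT by edgeR, with an adjusted p of 0.000377, and 2.15 ± 0.29 higher in dKO, with an adjusted p of 0.000785. In Bcat_KO, with 0 counts against 4404 in WT, it was at least 1682-fold lower (adjusted p = 3.32e-06), taking 3 counts over the group at 0 as the limit and the lower library of the other group, as in each such bound below. It kept these calls in each of the 11 alternatives. Igkv5-39 was also called higher in WT_Prmt1 (277 and 190 CPM) than in WT (71.6 and 144 CPM). That call was lost with edgeR's robust estimation (adjusted p = 0.183).

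Ighv14-4, Igkv8-30, Igkv3-5 and Ighv1-9 were close to 0 in WT and were called higher in both Hoxa9_KO and dKO, in each of the 11 alternatives. Ighv14-4 was at 54.4 and 54.8 CPM for Hoxa9_KO and 103 and 84.8 CPM for dKO, against 0.106 and 0 for WT, with adjusted p of 0.000174 and 4.88e-05 by edgeR. It reached 10 counts in 5 libraries, those of Hoxa9_KO and dKO and Bcat_KO S4 with 24 counts. Ighv14-4 thus passed the filter through the groups where it was high, and its p-values stand as descriptions. Igkv3-5 was at 346 and 374 CPM for Hoxa9_KO and 56.3 and 30.9 for dKO, against 0 and 0.471 for WT, with adjusted p of 0.000295 and 0.000841. Igkv8-30 was at 96.1 and 42.3 CPM for Hoxa9_KO and 249 and 185 for dKO, against 0.212 and 0 for WT, with adjusted p of 0.000422 and 7.65e-05. Ighv1-9 was at 57.3 and 204 CPM for Hoxa9_KO and 276 and 205 for dKO, against 0.106 and 0.0942 for WT, with adjusted p of 0.00147 and 0.000348. Levels above WT were not limited to these groups. Igkv8-30 was at 25.4 and 58.8 CPM in WT_Prmt1, and Igkv3-5 at 11.8 and 43.7 CPM in Prmt1_KO. Igkv8-30 and Ighv1-9 were also called higher in WT_Prmt1 than in WT, and Ighv1-9 in Bcat_KO. With edgeR's robust estimation Ighv1-9 lost both of these calls (adjusted p of 0.162 and 0.0645). For all 4, Hoxa9_KO and dKO did not overlap WT, which followed from choosing called segments close to 0 in WT. Igkv3-10 was also called higher in Hoxa9_KO than in WT, with an adjusted p of 0.0205, on the uneven values given above, and lost the call with robust estimation (0.174) and without WT S1 (0.107) or WT S2 (0.0941).

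Some segments separated dKO from Hoxa9_KO. Ighv5-4 was at 59.5 and 88.1 CPM in Hoxa9_KO and 0.673 and 0.156 in dKO, with an adjusted p of 0.00687 by edgeR. Igkv1-122 was at 0 and 0.248 CPM in Hoxa9_KO and 36.0 and 58.7 in dKO, also with an adjusted p of 0.00687. Ighv1-77 was higher in dKO (0.00687) and Igkv4-70 lower (0.0196), the latter with 10 or more counts in only 1 library outside Hoxa9_KO. All 4 lost the call when only the 4 libraries of these groups were fitted, where adjusted p was 0.0990 for Ighv5-4 and Igkv1-122, 0.104 for Ighv1-77 and 0.388 for Igkv4-70. With robust estimation adjusted p was 0.0869 for Ighv5-4, 0.0661 for Igkv1-122 and 0.228 for Igkv4-70.

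In Bcat_KO, Ighv1-63 was called higher than in WT, but with 1 library outside Bcat_KO at 10 or more counts it passed the filter through the group where it was high, so its values above stand as a description. Igkv8-27 was at 31.1 and 68.0 CPM in WT and at 0.468 and 0 in Bcat_KO, with an adjusted p of 0.00310 by edgeR. Ighv3-6 was at 22.7 and 27.8 CPM in WT and at 0.301 and 0 in Bcat_KO, with an adjusted p of 0.00353. Igkv6-25 was called higher, by 5.03 ± 1.44 on the log2 scale with an adjusted p of 0.0391, and Iglv2 higher by 4.20 ± 1.11 with an adjusted p of 0.0286. With robust estimation neither kept the call (0.133 and 0.108). Igkv6-25 also lost it when WT S2 was left out (0.136) and when either Bcat_KO library was (0.0562 for S3, 0.109 for S4), and Iglv2 without Bcat_KO S4 (0.119) and when only the groups compared were fitted (0.0803). Igkv4-74 and Igkv4-59 had no count in either Bcat_KO library and were at 1330.3 and 387 CPM and at 490 and 105 CPM in dKO, at least 9104-fold and 2466-fold higher, with adjusted p of 0.00167 and 0.00252. Igkv4-59 was 97.5% identical to Igkv4-70, and Igkv4-74 91.9% identical to Igkv4-68, so the split of these counts between segments is uncertain.

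In Prmt1_KO, Igkv1-117 was at 0 and 0.164 CPM against 49.8 and 62.0 in WT_Prmt1, with an adjusted p of 3.88e-05 by edgeR. Igkv8-30 had 0 counts against 1742 in WT_Prmt1, at least 358-fold lower (adjusted p = 8.62e-05), and Igkv1-122 0 against 1028, at least 246-fold lower (0.000124). Igkv3-5 and Ighv3-6 went the other way. Igkv3-5 was at 11.8 and 43.7 CPM against 0.114 and 0, with an adjusted p of 0.000417, and Ighv3-6 at 37.7 and 9.58 CPM against 0.568 and 0, with 0.00205. Between the 2 wild-type groups, Igkv8-30 was at 25.4 and 58.8 CPM for WT_Prmt1 against 0.212 and 0 for WT, with an adjusted p of 0.000760 by edgeR. Ighv13-2 was at 32.3 and 62.1 CPM against 0 and 0.377, with 10 or more counts in only 1 library outside WT_Prmt1.

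The constant regions, which are joined to V segments by splicing and set the antibody class, were dominated by Ighm, the IgM heavy chain, and Igkc, the kappa chain. Ighm was at 2583 and 5949 CPM for WT, 9158 and 13110 for Hoxa9_KO, 7182 and 10279.5 for Bcat_KO, 23441 and 12438 for dKO, 3350 and 3387 for WT_Prmt1, and 3927 and 5986 for Prmt1_KO. By edgeR it was 2.12 ± 0.41 (log2 ± SE) higher in dKO than in WT with an adjusted p of 0.00477, and 1.39 ± 0.40 higher in Hoxa9_KO with 0.0731. Igkc was called higher than in WT in both, by 1.97 in Hoxa9_KO (0.0135) and 2.75 in dKO (0.000921). Ighg2c, a switched IgG class, was at 0.529 and 0.801 CPM for WT, 436 and 2523 for Hoxa9_KO, 163 and 27.8 for Bcat_KO, 10672 and 341 for dKO, 41.3 and 71.2 for WT_Prmt1, and 1.11 and 0.123 for Prmt1_KO. Of 12 constant genes tested, 4 were higher and 1 lower in Hoxa9_KO than in WT, 6 and 1 in dKO, and 2 and 3 in Bcat_KO, beside 5.33%, 16.5% and 15.7% of all genes called. In Prmt1_KO 4 were lower and none higher than in WT_Prmt1, a share near the 31.8% of all genes called there. The 4 included Igha, the IgA heavy chain, at 162 and 214 CPM against 1199.7 and 981 (adjusted p = 0.00323). Ighd, the IgD heavy chain of resting B cells, differed from WT by -2.16, -1.70 and -2.71 on the log2 scale in Hoxa9_KO, Bcat_KO and dKO (adjusted p of 0.0123, 0.0184 and 0.00149).

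Markers of antibody-secreting cells differed in how far they followed the V share. Jchain, which links the subunits of secreted IgM and IgA, was at 466 and 979 CPM for WT, 1978 and 2274 for Hoxa9_KO, 700.2 and 1028 for Bcat_KO, 4554 and 2294 for dKO, 661 and 700.2 for WT_Prmt1, and 493 and 549 for Prmt1_KO. The 4 libraries with the highest V share were also the 4 highest for Jchain, Igkc and Tnfrsf17, the plasma cell receptor for survival factors. For Ighm 3 of the 4 were. Over the 14 plasma cell markers, all 4 of these libraries were the highest for 3 genes, 3 of them for 3 genes, 2 for 3 genes and 1 for 5 genes. Sdc1, a surface marker of plasma cells, was at 25.3 and 27.1 CPM in Hoxa9_KO and at 41.9 and 39.7 CPM in WT. None of the 4 libraries was among the 4 highest for any of the 10 listed surrogate light chain and B cell receptor genes. The same held for 7 of 15 B cell markers and for 8 of 14 recombination genes, Rag1 and Dntt among them. Of the other recombination genes, 4 had 1 and 2 had 3 of these libraries among their 4 highest. Of the other B cell markers, 5 had 1, 2 had 2 and 1 had 3. Of 14 plasma cell markers, 4 were higher in Hoxa9_KO than in WT, 7 in dKO and 3 in Bcat_KO, with 0, 0 and 1 lower. In these comparisons 5.33%, 16.5% and 15.7% of all genes were called. In Prmt1_KO 5 markers were lower and 0 higher than in WT_Prmt1, near the share of 31.8% over all genes. The median log2 difference of the markers was 0.55, 1.08, 0.52 and -0.50 in these 4 comparisons. Their summed level was 820 and 1412 CPM for WT, 2512 and 2857 for Hoxa9_KO, 1179 and 1594 for Bcat_KO, 5441 and 2841 for dKO, 1123 and 1174 for WT_Prmt1, and 827 and 894 for Prmt1_KO.

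Genes of B cell precursors were lower in several knockout groups. Of 10 genes of the surrogate light chain and B cell receptor, 1 was lower in Hoxa9_KO than in WT, 8 in Bcat_KO and 10 in dKO, and 9 were lower and 1 higher in Prmt1_KO than in WT_Prmt1. Their median log2 difference was -1.64, -3.83, -3.77 and -3.76. Igll1, a surrogate light chain component, was at 142 and 199 CPM for WT, 29.4 and 69.7 for Hoxa9_KO, 6.48 and 4.09 for Bcat_KO, 6.58 and 0.936 for dKO, 167 and 170 for WT_Prmt1, and 5.24 and 5.24 for Prmt1_KO. Cd79a, which carries the receptor's signal, was at 161 and 203 CPM for WT, 49.1 and 15.6 for dKO, and 10.7 and 13.2 for Prmt1_KO. Of 14 recombination genes, 3 were lower for Hoxa9_KO, 4 for Bcat_KO and 6 for dKO than for WT, and 7 for Prmt1_KO than for WT_Prmt1, with 1 higher in each of Bcat_KO, dKO and Prmt1_KO. The shares of all genes called were 5.33% in Hoxa9_KO, 15.7% in Bcat_KO, 16.5% in dKO and 31.8% in Prmt1_KO. They stand beside these counts and those of the lists that follow. Dntt, the enzyme that adds bases at V junctions, was at 1398 and 1254 CPM for WT, 368 and 347 for Hoxa9_KO, 371 and 414 for Bcat_KO, and 168 and 97.2 for dKO. Of 15 B cell markers, 1, 11 and 8 were lower in Hoxa9_KO, Bcat_KO and dKO than in WT, and 10 in Prmt1_KO than in WT_Prmt1. Their summed level was 1173 and 1318 CPM for WT, 626 and 998 for Hoxa9_KO, and 308 and 303 for Bcat_KO. It was 1570 CPM in dKO S6, above both WT libraries, and 641 CPM in dKO S7, below both. In WT_Prmt1 it was 2621 and 2463 CPM, against 349 and 332 in Prmt1_KO. Of 16 factors of V promoters and early B cells, 1 was higher and 2 lower for Hoxa9_KO, 2 and 5 for Bcat_KO, 1 and 6 for dKO, and 3 and 7 for Prmt1_KO.

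**Figure D5:**
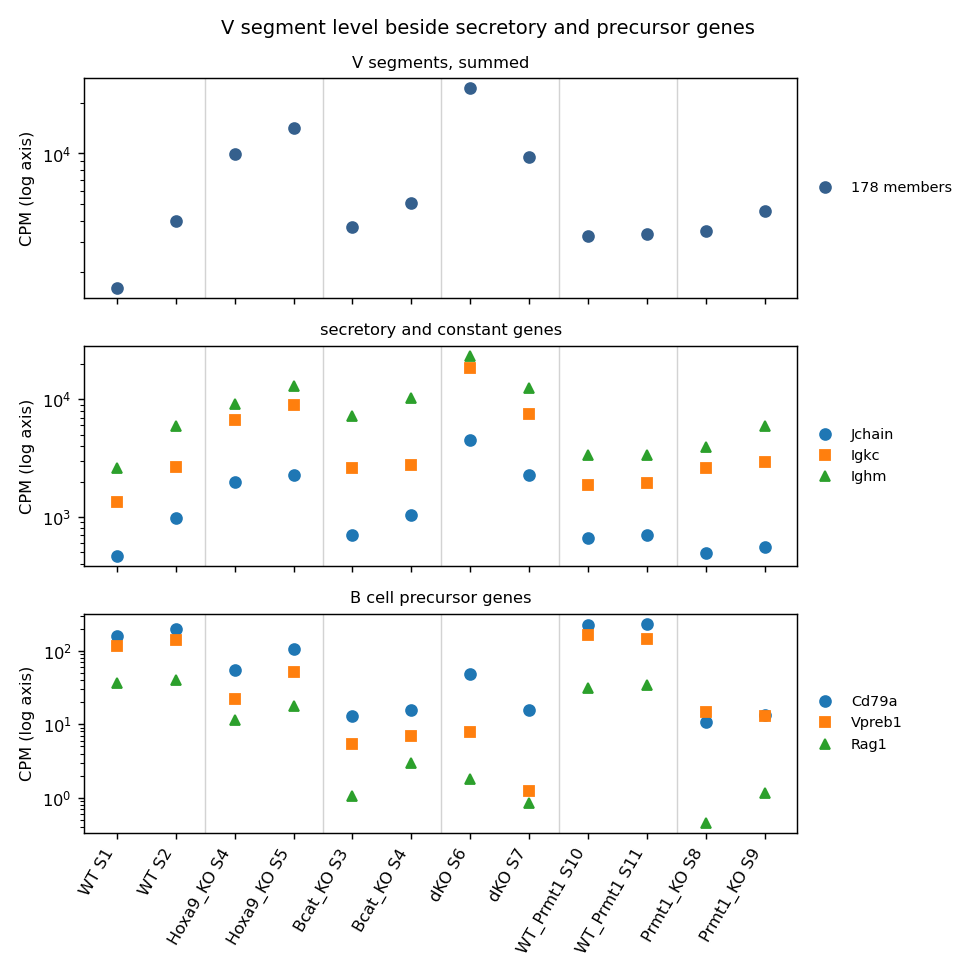
Levels in CPM on log axes in the 12 libraries for the sum of the 178 V segments (top), Jchain, Igkc and Ighm (middle) and the precursor genes Cd79a, Vpreb1 and Rag1 (bottom). The 4 libraries of Hoxa9_KO and dKO are highest for V segments, Jchain and Igkc, Bcat_KO S4 is above Hoxa9_KO S4 for Ighm, and none of the 4 is among the 4 highest for a precursor gene.

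Markers of other cells also moved between libraries. The 8 neutrophil markers summed to 1708 and 442 CPM for WT, 77.0 and 1126 for Hoxa9_KO, 17.4 and 29.6 for Bcat_KO, 2222 and 1519 for dKO, 675 and 744 for WT_Prmt1, and 2059 and 1736 for Prmt1_KO. In Bcat_KO 3 of the 8 were at 0 in both libraries. The 7 erythroid markers summed to 1248 and 296 CPM for WT, 270.1 and 154 for Hoxa9_KO, 30.1 and 20.98 for Bcat_KO, 99.9 and 403 for dKO, 662 and 592 for WT_Prmt1, and 38.5 and 32.1 for Prmt1_KO. The 8 plasmacytoid dendritic cell markers summed to 2012 and 2074 CPM for WT_Prmt1 and to 275 to 878 CPM in the 10 other libraries. The 11 T cell markers summed to 168 and 173 CPM for WT_Prmt1 and to 62.4 to 109 CPM elsewhere. Of these, 6 of 8 and 3 of 11 were higher in WT_Prmt1 than in WT, beside 6.66% of all genes called. In Prmt1_KO 4 of 8 and 4 of 11 were lower than in WT_Prmt1, beside 31.8% of all genes. The T cell share there was near that of all genes. The 2 Bcat_KO libraries, with the most V segments at 0, were thus also lowest in neutrophil and erythroid markers, and WT_Prmt1 was highest in plasmacytoid dendritic and T cell markers. The part of these cells in the V segment differences was not tested.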

How the data were processed

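Gene counts for 12 LSK libraries were deposited by the authors as 1 table of whole reads per gene, raw and not normalized. Reads were handled with Trim Galore 0.6.6, STAR 2.7.6a and featureCounts on GRCm38, per the submitters' processing notes; the kit keeps strand, per the labels' protocols, and no source used here gives the counting options. Of nonzero counts on a library's members 57.1% to 81.0% were even (67.1% to 75.9% over all genes), so both mates of a fragment may have been counted and floors of 3 counts may be too low. Floors cover counting error only. All 12 value columns were used, control columns being read as wild type. Gene IDs matched GENCODE M21 for 55230 of 55471 rows.

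CPM used all counts. Members were compared with edgeR 4.0.16 (R 4.3.3; filterByExpr at a minimum count of 10, TMM, glmQLFit over 12 libraries with 6 residual degrees of freedom, Benjamini-Hochberg over all genes), tested on simulated data first. DESeq2 1.42.0, robust estimation, other scalings and filters and leaving out libraries were alternatives. Similarity came from blastn 2.17.0. Named segments are the 12 with the highest mean CPM, each library's leader and up to 10 called per comparison by adjusted p; Iglv2 was added after its values were seen. List genes named are constant genes and at most 4 per list by mean CPM, with Tnfrsf17, Sdc1, Vpreb1 and Rag1 added likewise. Members and lists were chosen with earlier results of these data known.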

Additional observations from a re-analysis of the deposited data

How the results depend on the processing

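Counts of called segments were the least stable values. No share over all genes stands beside the alternative counts, so they do not show a change particular to V segments. Without a filter the 7 counts (Hoxa9_KO, Bcat_KO and dKO against WT, dKO against Hoxa9_KO, dKO against Bcat_KO, Prmt1_KO against WT_Prmt1, WT_Prmt1 against WT) were 115, 111, 132, 119, 145, 97 and 112; with robust estimation, added after seeing the data, 7, 7, 10, 1, 22, 9 and 4. DESeq2 gave 46, 61, 20, 56 and 46 for all but the 2 dKO counts against WT and Bcat_KO. Fitting only the groups compared gave 0 by edgeR for dKO against Hoxa9_KO (36 of 126 at an unadjusted p under 0.05) and 49 for Prmt1_KO and for the wild types. Leaving out 1 library gave 8 to 25 for Bcat_KO, 21 to 50 for dKO against WT, 7 to 18, 29 to 74, 15 to 24 and 6 to 15 for the next 4. A lone library is assumed to vary like the others. Of 64 named calls 41 kept their call in every alternative; of 697 alternative values 639 kept direction and call, 58 lost the call and 0 turned. The exponential of Shannon entropy gave 35.2, 40.2, 16.2, 43.9, 38.3 and 8.07 effective segments in WT, Hoxa9_KO, Bcat_KO, dKO, WT_Prmt1 and Prmt1_KO. The WT_Prmt1 share was 0.337% without mitochondrial and haemoglobin genes. Without each library's leading segment it was 0.282% and the Prmt1_KO share 0.224%; without Igkv14-126 and Ighv11-2, also added after seeing the data, 0.254% and 0.125%, with 33.3 and 19.3 effective segments. At 2 or more counts 78.5 segments were detected in Prmt1_KO on average. The causes were not tested. No paired analysis was possible because the columns carry tags and no replicate numbers.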
